A study of Rattus norvegicus with 28 samples.

Results

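Nts and Ntsr1 were followed on custom arrays of neurotransmitter and cytokine genes in pain-related regions of the adult male rat nervous system. All features that the platform annotation gives to either gene were taken, which made 4 of 228 features: features 182, 183 and 184 for Nts and feature 158 for Ntsr1. Each of the 28 arrays set RNA of an injected rat (first channel) against RNA of a rat without injection (second channel) from the same region. An array gave 1 log ratio a feature, taken here as log2 because the base is not stated. Injected rats had carrageenan, a seaweed polysaccharide that inflames tissue (0.25% in 0.9% saline, 1 µl per g), or saline alone, put into the left hindpaw on postnatal day 3. Weaning was on day 21 and the rats reached day 59. The series text also names injection at a later age and adjuvant inflammation in adults; the labels of all 28 arrays give day 3 and no adjuvant, and those other conditions are not analysed here. The groups were PAG (the usual short form of periaqueductal grey) carrageenan with 5 arrays and PAG saline with 5, RVM (rostral ventromedial medulla) carrageenan with 5 and RVM saline with 4, and LDH (lumbar dorsal horn) with 5 arrays of the left and 4 of the right side, both of carrageenan-injected rats. The carrageenan and saline groups thus share the needle injection, cage mates shared 1 neonatal treatment, the uninjected rats had the same protocol without the injection, and the dorsal horn has no saline arrays here.

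Nts encodes a precursor protein from which the peptides neurotensin and neuromedin N are cut. Ntsr1 encodes the high-affinity neurotensin receptor, which couples mainly to Gq and phospholipase C, and Ntsr2 a second receptor of lower affinity. Neurotensin neurons of the periaqueductal grey project to the rostral ventromedial medulla, where the peptide can either facilitate or inhibit nociception, and neurotensin neurons also lie in the superficial dorsal horn.

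A value above 0 is read here as more transcript in the injected rat, whose RNA was always in the first channel; the table itself leaves the direction open, so this reading is likely and not certain. The dyes were never swapped, so an effect of the dyes on a ratio cannot be told apart from that of the injection. An exact 0, which made up 55.9% of 6384 values, was taken as not measured. Arrays measured between 7 and 195 features (median 97.5), and the SD of an array's ratios lay between 0.55 and 2.36. Whether arrays of 1 group came from different rats is not labelled, and the p-values rest on a spread among arrays that could be technical alone. Nor do the labels say whether regions or sides share injected rats, or whether 1 uninjected rat served several arrays. In tissue RNA a change in the cells that carry a transcript and a change in the transcript per cell cannot be told apart. Only 202 of 228 features had a gene name, so a listed gene that was not found may lie among the unnamed ones. Of the neuronal and glial markers, the named features held only Slc6a4, Gad2, 1 gene of noradrenaline or dopamine neurons and 1 further inhibitory gene. A ratio gives no level, so the tissue labels could not be checked.

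The Nts features matched the rat gene table through their gene ID. The gene ID and the source record given for Ntsr1 feature 158 are those of mouse. The ID was not in the rat table, so the feature's name is that of the annotation. Whether its oligo has the mouse or the rat sequence could not be checked, and every Ntsr1 result rests on this feature. The oligo sequences are not in the files used here. To show the start regions of both genes that are compared below, the promoter windows of RefSeq (rat build GRCr8, 250 bases before to 50 after the start) are given 5′ to 3′ on the gene's strand, Nts at chr7:39460839-39461138 on the minus strand and Ntsr1 at chr3:187983528-187983827 on the plus strand. Capitals mark matches, on either strand, to TGANTCA (the core of AP-1 sites), TGACNTCA (cyclic AMP response elements with any central base) and TATANA (TATA boxes).
Nts: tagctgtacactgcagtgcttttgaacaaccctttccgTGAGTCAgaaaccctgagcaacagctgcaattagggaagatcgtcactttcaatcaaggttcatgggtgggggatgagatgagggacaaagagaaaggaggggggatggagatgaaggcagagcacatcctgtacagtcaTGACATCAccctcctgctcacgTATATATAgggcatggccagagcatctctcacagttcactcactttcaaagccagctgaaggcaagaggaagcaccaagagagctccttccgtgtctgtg
Ntsr1: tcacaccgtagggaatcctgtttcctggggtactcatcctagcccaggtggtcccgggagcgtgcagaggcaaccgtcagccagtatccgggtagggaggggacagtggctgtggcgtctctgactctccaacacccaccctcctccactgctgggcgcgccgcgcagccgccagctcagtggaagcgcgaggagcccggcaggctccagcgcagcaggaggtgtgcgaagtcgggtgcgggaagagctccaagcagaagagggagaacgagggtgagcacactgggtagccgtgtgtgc
The Nts window held 1 match to TGANTCA, starting at position -212 from the gene's start, 1 to TGACNTCA, starting at -72, and 2 overlapping ones to TATANA, starting at -50 and -48. The Ntsr1 window held no match to these or to GGGCGG (the GC box), and its GC content was 65.7%, against 50.3% in Nts and a median of 51.7% over 33469 rat windows. Over all windows 7.33% held TGANTCA, 10.2% TGACNTCA, 26.5% TATANA and 33.1% GGGCGG. The motifs were chosen with the windows in view, and a match describes letters and shows no binding.

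The features differed first in how often they were measured. Nts feature 184 had a ratio on 22 of 28 arrays and Ntsr1 feature 158 on 21 of 28, against a median of 10.5 arrays over all features. Nts features 182 and 183 had ratios on 9 and 10 arrays. Features 184 and 158 were measured on all 10 PAG arrays, although PAG carrageenan arrays measured 148.8 features on average and PAG saline arrays 80.8. Feature 184 was missing on 1 RVM carrageenan array, 2 left and 3 right LDH arrays, and feature 158 on 1 array of each RVM group, 4 left and 1 right LDH arrays.

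In the periaqueductal grey of carrageenan-injected rats Nts feature 184 and Ntsr1 feature 158 lay above the uninjected controls. Nts feature 183 averaged -0.17 there and was below 0 on 2 of the 3 arrays that measured it, and feature 182 had no ratio. Nts feature 184 had log2 ratios of 0.637, 0.33, 0.194, 0.791 and 0.885 on PAG carrageenan arrays 1 to 5, against 0.587, 0.622, 0.012, 0.179 and 0.071 on PAG saline arrays 1 to 5. All 10 values were above 0, and both groups overlapped. The SD of an array's ratios lay between 1.42 and 1.55 in PAG carrageenan and between 0.55 and 1.69 in PAG saline. The share of an array's measured features that lay below Nts was 79%, 66%, 66%, 69% and 79% on the carrageenan arrays. On the saline arrays it was 85%, 82%, 57%, 71% and 64%, so by this measure Nts did not stand higher throughout after carrageenan. Ntsr1 feature 158 had 0.32, 0.723, 0.307, 1.91 and 3.015 on PAG carrageenan arrays, against -0.3, 0.534, -0.261, -0.014 and 0.067 on PAG saline arrays. The receptor was above 0 on 5 of 5 carrageenan arrays and on 2 of 5 saline arrays, and the groups overlapped through saline array 2. Arrays 4 and 5 of the carrageenan group carried the highest ratios of both genes.

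Against the uninjected controls, Nts rose in PAG carrageenan by a mean of 0.57 ± 0.30 (SD, n = 5; 1.48-fold, 95% interval of the log2 ratio 0.27 to 0.87, limma adjusted p = 0.0227). Ntsr1 rose by 1.26 ± 1.18 (SD, n = 5; 2.39-fold, 95% interval 0.44 to 2.07, limma adjusted p = 0.0490). Of the 78 features tested in this group 14.1% were called in either direction and 7, or 8.97%, were called higher, and the median log2 ratio over all 78 was 0.19. Among features measured on all 5 arrays, 18.2% were above 0 on every one of them. In PAG saline Nts averaged 0.29 ± 0.29 (95% interval -0.0077 to 0.60, limma adjusted p = 0.383) and Ntsr1 0.0052 ± 0.33 (95% interval -0.81 to 0.82, limma adjusted p = 0.989; SD, n = 5 each), and 0.0% of 78 features were called, with 11.5% at an unadjusted p below 0.05. Of the features measured on all 5 PAG saline arrays 12.0% were above 0 on every one, as Nts was. These fits took the spread from both PAG groups; with PAG carrageenan fitted alone both calls were lost (limma adjusted p = 0.149 for Nts and 0.207 for Ntsr1), with quantile normalization both were lost too (0.33 for Nts and 0.82 for Ntsr1, adjusted p = 0.149 each), and with all 6 groups in 1 fit Nts lost its call (adjusted p = 0.466) while Ntsr1 kept it (adjusted p = 0.0172). The Ntsr1 call in PAG carrageenan stood at the edge of the threshold: it was lost without any single one of the 10 PAG arrays (adjusted p between 0.0512 and 0.123), and without carrageenan array 5 the mean was 0.82. The Nts call was lost without carrageenan array 1, 2, 4 or 5 (limma adjusted p of 0.0577, 0.0628, 0.0722 and 0.0686), with means between 0.49 and 0.63. Slc6a4, the serotonin transporter, was the only 1 of 3 listed serotonin neuron markers among the named features. It was also called higher in PAG carrageenan (0.88, against 0.48 in PAG saline). Gad2, the 1 inhibitory marker tested of 4 listed, had means of 0.17 in PAG carrageenan and of 0.26 in PAG saline, without a call. The part of Slc6a4 and Gad2 in the Nts and Ntsr1 results was not tested.

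**Figure D1:**
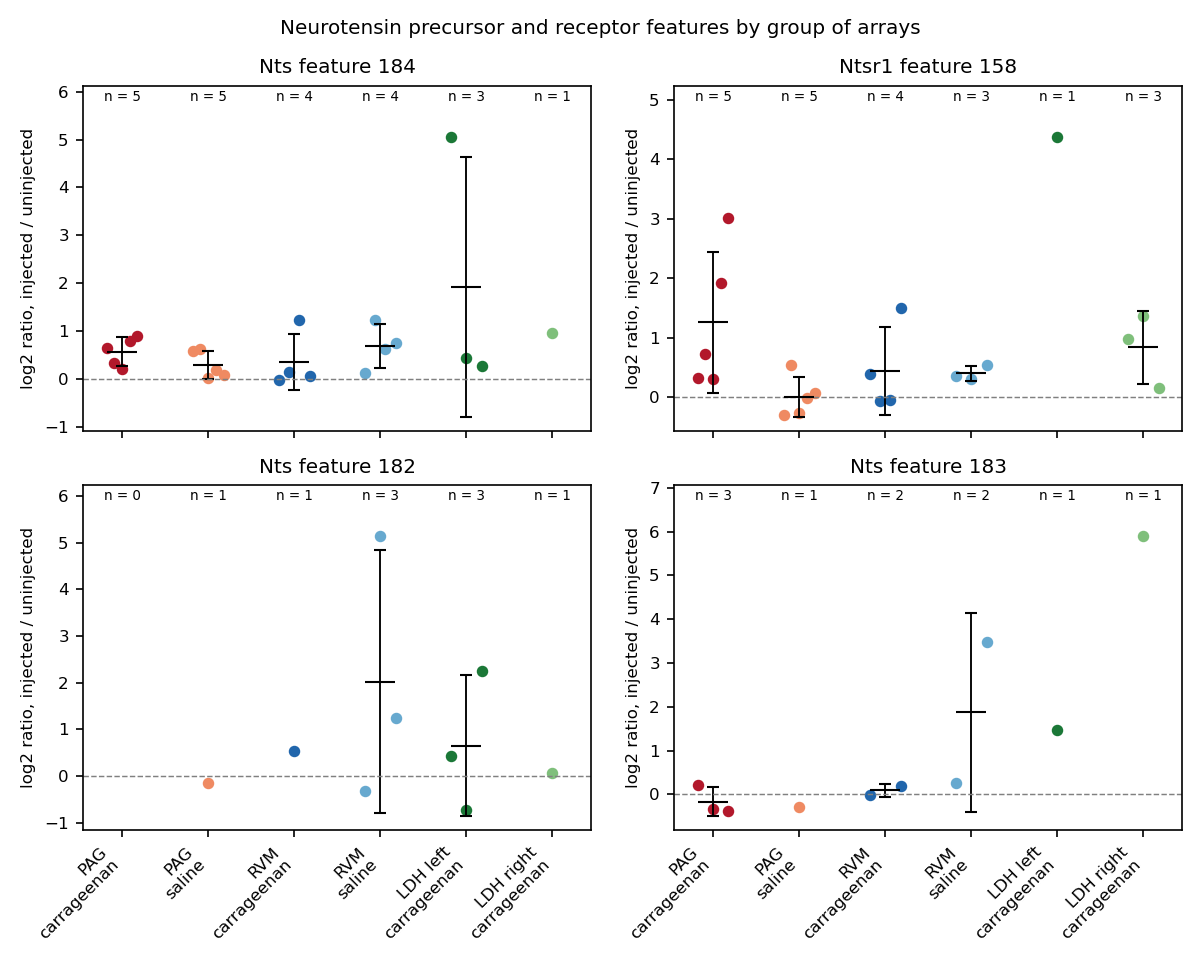
Log2 ratios (injected over uninjected) of the 3 Nts features and the Ntsr1 feature on each array that measured them, by group; the black bar and whiskers are the mean and SD where at least 2 arrays measured the feature, and n is the number of arrays. Feature 184 lies above 0 on 21 of 22 arrays, while features 182 and 183 were measured on few arrays and spread widely.

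Set directly against saline in PAG, the estimate was larger for the receptor than for the ligand, and neither passed the test. Ntsr1 differed by 1.25 (95% interval 0.092 to 2.41, limma adjusted p = 0.381, unadjusted p = 0.0372). Nts differed by 0.27 (95% interval -0.15 to 0.70, limma adjusted p = 0.432). With quantile normalization the difference was 0.89 for Ntsr1 and -0.048 for Nts. Here 0.0% of 78 features passed by limma and 12.8% had an unadjusted p below 0.05, among which Ntsr1 had the sixth smallest, and the median difference over all features was 0.14, with 46 of 78 above 0.

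In the rostral ventromedial medulla neither gene separated carrageenan from saline. Nts feature 184 had -0.026, 0.133, 1.224 and 0.061 on RVM carrageenan arrays 1, 3, 4 and 5, against 0.121, 1.234, 0.624 and 0.749 on RVM saline arrays 1 to 4. A single carrageenan array, number 4, was high, and the saline values were above 0 on 4 of 4 arrays. Ntsr1 feature 158 had 0.391, -0.063, -0.053 and 1.499 on RVM carrageenan arrays 1, 3, 4 and 5, against 0.357, 0.303 and 0.544 on RVM saline arrays 1, 3 and 4. The high receptor value of the carrageenan group was on array 5, not on array 4 where Nts was high, and the groups overlapped for both genes. Nts averaged 0.35 ± 0.59 after carrageenan and 0.68 ± 0.46 after saline (SD, n = 4 each), a difference of -0.33 (95% interval -1.16 to 0.50, limma adjusted p = 0.850). Ntsr1 averaged 0.44 ± 0.73 after carrageenan (SD, n = 4) and 0.40 ± 0.13 after saline (SD, n = 3), a difference of 0.042 (95% interval -0.95 to 1.04, limma adjusted p = 0.997). Without array 5 the RVM carrageenan mean of Ntsr1 was 0.092 ± 0.26 (SD, n = 3), and without array 4 that of Nts was 0.056 ± 0.080 (SD, n = 3). Of 56 features 0.0% passed by limma and 7.14% had an unadjusted p below 0.05; the median difference was -0.097, with 21 of 56 above 0.

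Neither gene passed against the uninjected controls in RVM, where limma called 1.79% of 56 features in RVM carrageenan and 5.36% in RVM saline. The smallest p belonged to Nts in RVM saline (1.60-fold, 95% interval of the log2 ratio 0.095 to 1.27, unadjusted p = 0.0284, limma adjusted p = 0.133), where 23.2% of 56 features had an unadjusted p below 0.05 and 0.0% were called higher. In RVM saline 26.1% of the features measured on all 4 arrays were above 0 on every one, as Nts was. Nts in RVM carrageenan had a limma adjusted p of 0.964, as had Ntsr1. Ntsr1 in RVM saline had one of 0.444.

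The difference between carrageenan and saline was compared between the regions in 1 fit of the 4 brain groups. PAG minus RVM, it was 1.21 for Ntsr1 (95% interval -0.36 to 2.77, limma adjusted p = 0.515) and 0.61 for Nts (95% interval -0.21 to 1.42, limma adjusted p = 0.515), so neither interval left out 0. Of the 48 features tested, 0.0% passed, 6.25% had an unadjusted p below 0.05, and the median over them was 0.27. With 1 array left out the estimate lay between 0.77 and 1.56 for Ntsr1 and between 0.42 and 0.90 for Nts. After carrageenan, PAG minus RVM was 0.22 for Nts (95% interval -0.45 to 0.88) and 0.81 for Ntsr1 (95% interval -0.64 to 2.26). After saline it was -0.39 for Nts (95% interval -0.95 to 0.17) and -0.40 for Ntsr1 (95% interval -0.89 to 0.095). With 1 array left out, the difference after carrageenan lay between 0.095 and 0.51 for Nts and between 0.37 and 1.16 for Ntsr1, and that after saline between -0.57 and -0.20 for Nts and between -0.53 and -0.32 for Ntsr1. None of these 4 region differences passed by limma (adjusted p between 0.442 and 0.793). Over all features 0.0% passed in either comparison, with 5.08% of 59 after carrageenan and 9.72% of 72 after saline at an unadjusted p below 0.05.

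**Figure D2:**
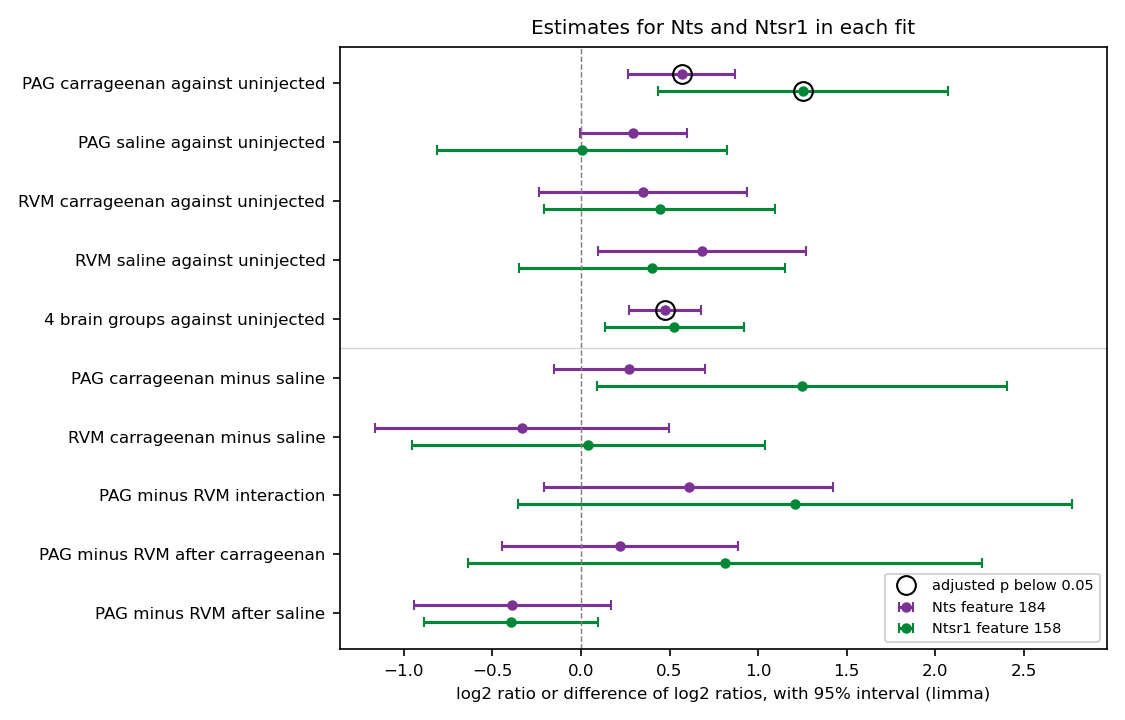
Estimates with 95% intervals from limma for Nts feature 184 and Ntsr1 feature 158; rows above the line are mean log2 ratios against uninjected controls, rows below it are differences between groups. The circled estimates, which had an adjusted p below 0.05, were Nts and Ntsr1 in PAG carrageenan and Nts over the 4 brain groups; the last comes from a test added after the Nts values were seen and is no independent support for them.

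What Nts feature 184 showed over the whole series was a ratio above 0 on nearly every array. It was above 0 on 21 of the 22 arrays that measured it (95.5%), with -0.026 on RVM carrageenan array 1 as the only exception and a median of 0.51. Among 105 features measured on at least 12 arrays this was the highest share. The median share was 55.6%, and 50.7% of all measured values were above 0. A nearly constant sign also occurred in the other direction. Grik3 feature 88 was above 0 on 0 of 25 arrays, Grik3 feature 89 on 0 of 16 and Grin2b feature 169 on 2 of 27. Ntsr1 feature 158 was above 0 on 16 of 21 arrays (76.2%, rank 19, median 0.36). The mean of the 4 brain groups against 0, a test added with these values known and so no independent support for them, was 0.47 for Nts (1.39-fold, 95% interval 0.27 to 0.68, limma adjusted p = 0.00402, above 0 on 17 of 18 arrays) and 0.53 for Ntsr1 (1.44-fold, 95% interval 0.13 to 0.92, limma adjusted p = 0.0604, above 0 on 12 of 17 arrays). In that fit 12.5% of 48 features were called higher, Gad2, the glutamate decarboxylase of inhibitory neurons, among them (0.39), and the median was 0.16. The Nts estimate lay between 0.40 and 0.52 when any one array was left out, with an adjusted p of at most 0.00976. The call was lost with quantile normalization (0.59, adjusted p = 0.115) and with all 6 groups in 1 fit (0.47, adjusted p = 0.141). Over all 6 groups, 311 of 348 pairs of arrays with at least 15 shared features had r above 0 (median 0.27). The fit of the 4 brain groups took all its arrays as independent. If regions shared rats, or arrays shared an uninjected rat, its p-values would be too small, and the labels leave this open. The part that the dyes or a shared control play in a ratio above 0 on so many arrays was not tested.

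**Figure D3:**
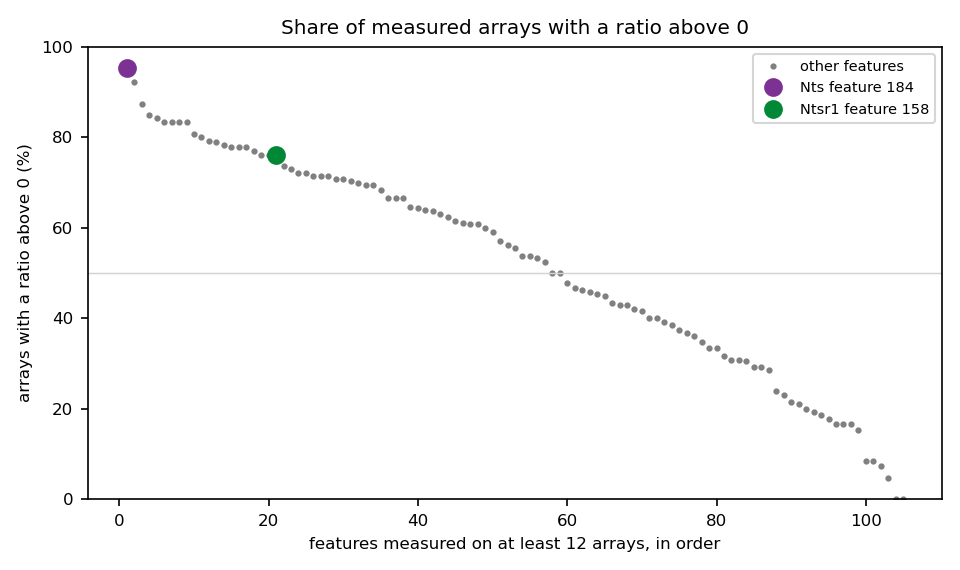
Percentage of measured arrays with a ratio above 0 for each of the 105 features measured on at least 12 of 28 arrays, in falling order. Nts feature 184 stands first at 95.5% and Ntsr1 feature 158 at 76.2%, where the median is 55.6%.

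In the dorsal horn too few arrays measured either gene for the comparison of the sides. On the left, the side of the injected paw, Nts feature 184 had 5.054, 0.44 and 0.266 on arrays 2, 3 and 4; on the right it had 0.964 on array 4 alone. Ntsr1 feature 158 had 4.372 on left array 2 alone, against 0.974, 1.37 and 0.162 on right arrays 2, 3 and 4. All of these values were above 0. Of the features measured on at least 3 left arrays, as Nts was, 10.9% were above 0 on each array that measured them, and on the right, where Ntsr1 had 3 values, 16.1% were; for the members with 1 value, 50.7% of all single measured values of the series were above 0. Left array 2 gave the highest ratio of the series for both features. On that array only 1 of 168 measured features exceeded Nts and only 2 exceeded Ntsr1, and the array's SD was 1.49. Left Nts averaged 1.92 ± 2.72 (SD, n = 3) with array 2 and 0.35 ± 0.12 (SD, n = 2) without it. Right Ntsr1 averaged 0.84 ± 0.62 (SD, n = 3), and the left side gave no second value to set against it.

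Ordered by group mean, Nts feature 184 ran from LDH left (1.92) through LDH right (0.96, 1 array), RVM saline (0.68), PAG carrageenan (0.57) and RVM carrageenan (0.35) to PAG saline (0.29). Ntsr1 feature 158 ran from LDH left (4.37, 1 array) through PAG carrageenan (1.26), LDH right (0.84), RVM carrageenan (0.44) and RVM saline (0.40) to PAG saline (0.0052). The arrays of neighbouring groups overlapped throughout both orders, except for Ntsr1 between LDH left, with its single array, and PAG carrageenan. Single arrays set parts of these orders: without LDH left array 2 the LDH left mean of Nts was 0.35, and without array 4 the RVM carrageenan mean of Nts was 0.056, below that of PAG saline. For Ntsr1, the PAG carrageenan mean without array 5 was 0.82, below that of LDH right.

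The other Nts features, measured on fewer arrays, did not share the nearly constant ratio above 0 of feature 184. Feature 182 had -0.158 on PAG saline array 1, 0.533 on RVM carrageenan array 1, and -0.326, 5.146 and 1.238 on RVM saline arrays 1, 3 and 4. On the left LDH it had 0.434, -0.736 and 2.257 on arrays 2, 3 and 4, and on the right 0.072 on array 4. It lay above 0 on 6 of 9 arrays, where 50.7% of all measured values of the series were above 0, and had no ratio on the PAG carrageenan arrays. Feature 183 had 0.208, -0.334 and -0.375 on PAG carrageenan arrays 1, 2 and 3, against -0.3 on PAG saline array 3. In RVM it had -0.008 and 0.199 on carrageenan arrays 1 and 3, against 0.269 and 3.48 on saline arrays 1 and 3. In the dorsal horn it had 1.466 on left array 2 and 5.901 on right array 4, the highest ratio on that array. In PAG carrageenan, where feature 184 rose, feature 183 was below 0 on 2 of 3 arrays and averaged -0.17 ± 0.33 (SD, n = 3), with too few saline arrays for a test.

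All 3 features carry the same source record in the annotation. Features 182 and 184 had the same sign on 5 of 9 shared arrays, features 183 and 184 on 7 of 10, and features 182 and 183 on 3 of 5. Feature 184 was above 0 on nearly every array. Counts with it thus mostly restate how often the other feature was above 0 and cannot show whether the features follow each other. The median absolute difference between 2 features on 1 array was 0.89 for 182 and 184, 0.50 for 183 and 184, and 1.03 for 182 and 183. For scale, the median SD of an array's ratios was 1.44. The results given for Nts rest on feature 184, and these few shared arrays do not settle whether the other features bear it out.

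Ligand and receptor were set against each other on the 19 arrays that measured both features. These are differences between 2 log2 ratios on 1 array, not between levels. In PAG carrageenan Nts minus Ntsr1 was 0.317, -0.39, -0.11, -1.12 and -2.13 on arrays 1 to 5, against 0.887, 0.088, 0.273, 0.193 and 0.0040 on PAG saline arrays 1 to 5. The receptor ratio was the higher one on 4 of 5 carrageenan arrays and the ligand ratio on 5 of 5 saline arrays, and the groups overlapped through carrageenan array 1. The mean was -0.69 ± 0.96 after carrageenan and 0.29 ± 0.35 after saline (SD, n = 5 each), and their difference of -0.98 had an exact two-sided permutation p of 0.0556 (adjusted over 8 such tests 0.25; the smallest p possible was 0.00794). With 1 array left out, the mean lay between -0.94 and -0.33 after carrageenan and between 0.14 and 0.36 after saline, and the difference between -1.23 and -0.62. Against 0, the exact sign-flip p was 0.188 in PAG carrageenan and 0.0625 in PAG saline, the smallest that 5 arrays allow. In RVM the means were -0.096 ± 1.14 after carrageenan (SD, n = 4) and 0.097 ± 0.29 after saline (SD, n = 3), with an exact permutation p of 0.743 for the difference of -0.19. Over the series the ligand ratio was higher than the receptor ratio on 12 of 19 arrays, and both were above 0 on 13 of 19. Taken singly, Nts was above 0 on 95.5% and Ntsr1 on 76.2% of the arrays that measured it. The count of both thus mostly restates these shares and cannot show a link between ligand and receptor.

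Across the PAG arrays the ligand and receptor ratios were correlated in the values as deposited, and across the fewer RVM arrays no correlation passed the test. In PAG, Pearson's r was 0.72 (n = 10 arrays, permutation p = 0.00714, adjusted over 8 values 0.0349) and Spearman's rho 0.73 (permutation p = 0.0203, adjusted 0.0541). Without the 2 arrays farthest from the median of Nts r was 0.53, and with the group means taken out r was 0.62 (n = 10, permutation p = 0.0482, unadjusted). In RVM r was -0.40 and rho -0.43 (n = 7, exact permutation p = 0.387 and 0.354). Whether the correlation itself differed between the regions was not tested, and a group had at most 5 such arrays, too few for a value of its own. Over all 19 arrays r was 0.75 (permutation p = 0.00872, adjusted 0.0349) and rho 0.30 (permutation p = 0.205, adjusted 0.410), and this r rested on LDH left array 2: it was 0.25 without that array (n = 18, permutation p = 0.325). It was 0.40 without the 2 arrays farthest from the median, and 0.18 with group means taken out (n = 17, permutation p = 0.486).

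Whether the PAG correlation was called also depended on the scaling and on single arrays. With median centring r was 0.67 (adjusted permutation p = 0.0757), and with quantile normalization it was 0.19 (adjusted permutation p = 0.803). In the values as deposited its adjusted permutation p was no longer below 0.05 without carrageenan array 3, 4 or 5 or saline array 3, 4 or 5 (between 0.0740 and 0.200), with r between 0.60 and 0.72. Without any other PAG array it stayed below 0.05. Leaving out any of the same 6 arrays also ended the call over all arrays (adjusted permutation p between 0.0740 and 0.196). The r itself moved little there or rose. It was 0.75, 0.77 and 0.83 without PAG carrageenan array 3, 4 or 5 and 0.74 without saline array 3, against 0.75.

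**Figure D4:**
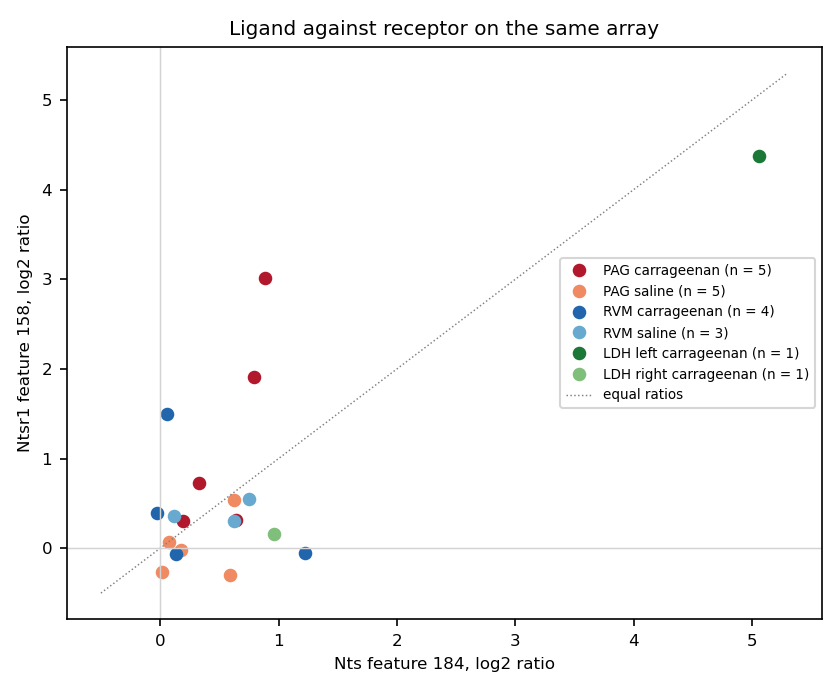
Log2 ratio of Ntsr1 feature 158 (vertical axis) against that of Nts feature 184 (horizontal axis) on the 19 arrays that measured both, coloured by group; the dotted line marks equal ratios. LDH left array 2 stands alone at 5.054 and 4.372, and PAG carrageenan arrays 4 and 5 lie above the line.

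Of 14 other genes of the neurotensin system (receptors, G proteins, peptidases and processing enzymes) only Ntsr2 was among the 202 named features. Ntsr2 feature 186 was measured on 9 of 28 arrays and entered no fit. It had 0.28 and 2.334 on PAG carrageenan arrays 2 and 3, against 0.71 on PAG saline array 1. RVM carrageenan gave no value, and RVM saline arrays 1, 3 and 4 had -0.848, 1.835 and 0.365. The dorsal horn had -0.006 and 0.244 on left arrays 2 and 3, against -0.11 on right array 4. Ntsr2 was thus above 0 on 6 of 9 arrays, where 50.7% of all measured values of the series were above 0. Unlike Ntsr1, it was near 0 on LDH left array 2.

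Other neuropeptide genes gave the background for both members. In PAG carrageenan, 1 of 9 features of other peptide precursors was called higher and 0 lower (8 of 9 above 0, median 0.45), and 0 of 7 features of other peptide receptors were called in either direction (6 of 7 above 0, median 0.61); over all 78 features 67.9% were above 0, 14.1% were called in either direction and 8.97% were called higher. The precursor called was Pdyn, which encodes dynorphin peptides (0.97, limma adjusted p = 0.0224). Between carrageenan and saline in PAG, 7 of 9 precursor features had an estimate above 0 (median 0.49) and 5 of 7 receptor features (median 0.063), and in RVM 1 of 5 precursor features (median -0.80) and 1 of 5 receptor features (median -0.11), with 0 called by limma in any of these; over all features 46 of 78 were above 0 in PAG and 21 of 56 in RVM.

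Likeness to the members was measured by Pearson's r over the arrays that 2 features shared, at least 12, as a description. The arrays share dyes and hybridisation. For Nts feature 184 the highest r among 85 named features were those of Adra2a, an adrenergic receptor (0.75, 20 arrays), Ntsr1 (0.75, 19 arrays) and Il16, a cytokine (0.58, 13 arrays), with a median of 0.028. For Ntsr1 they were, among 75, Pdyn (0.77, 13 arrays), Vipr2, a receptor of vasoactive intestinal peptide (0.77, 19 arrays), and Nts (0.75), with a median of 0.17. Without LDH left array 2 the order changed: Nts then came nearest to Pdyn (0.72, 15 arrays), the serotonin receptor Htr4 (0.62, 19 arrays) and Pomc, the precursor of beta-endorphin (feature 191, 0.60, 18 arrays). Ntsr1 then came nearest to Ntf3, a neurotrophin (0.82, 16 arrays), Vipr2 (0.77, 18 arrays) and the adrenergic receptor Adrb3 (0.74, 17 arrays). Vipr2 was the only one of these genes in both Ntsr1 lists.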

How the data were processed

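The authors deposited 1 table of log ratios, taken here as log2, with 1 value for each of 228 features on 28 arrays. Per the labels' protocols, 5 µg of TRIzol-extracted RNA a sample was reverse transcribed and labelled with a 3DNA kit; scanning, background correction and normalization are not given in the sources used here. Base 2 was assumed, as the base is not stated and the values (-13.245 to 10.459) do not settle it. The fold values hold only under base 2. The direction is the likely one. Of 348 pairs of arrays with at least 15 shared features 311 had r above 0 and 7 had r below -0.3 (median 0.27, lowest -0.51). All arrays carry the same dye order in the labels, so the direction was kept. Values were used as deposited, since array medians lay between -0.061 and 0.083.

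Fits used limma 3.58.1 under R 4.3.3 (two-sided), 1 per comparison over its own groups and without covariates, on all features with at least 3 measured arrays in each group, with Benjamini-Hochberg adjustment over them at 0.05; the script was tested on simulated data. Per-array differences used exact permutation, and correlations 100000 permutations (enumeration for RVM; 2000 permutations with an array left out). Named genes were every feature of Nts, Ntsr1 and the neurotensin list, the 3 most alike features of each member, and the wider peptide lists as counts with examples by p. The groups are those of the labels. Replicate numbers were not taken as pairs, since no label makes them so. Same-numbered arrays correlated above 0.1 in 2 of 5 pairs in PAG, 2 of 4 in RVM and 1 of 3 in LDH. Between PAG and RVM it was 2 of 5 for carrageenan and 2 of 4 for saline. The median r was 0.15 in RVM, against 0.010 for other pairs, and 0.14 between PAG and RVM saline, against -0.020. In PAG it was -0.072, against 0.082. So few pairs can neither show nor exclude a pairing. The members and lists were chosen with earlier results of these data known. The number of arrays limits the precision.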

Additional observations from a re-analysis of the deposited data

Results flagged for a closer look

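Nts feature 184 in RVM carrageenan had 1 array far from the others: array 4 at 1.224, where the other 3 lay between -0.026 and 0.133. Its gap to the nearest array was 0.873 of the group's range, above the 0.829 that Dixon's test allows for 4 arrays. Among 10 sets of 4 to 10 values looked at, chance flags about 1 in 20. That array measured 29 features, and Nts was the highest of them; without it the group averaged 0.056 ± 0.080 (SD, n = 3).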

How the results depend on the processing

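Over the results and alternatives run, 626 values kept their direction and side of the threshold (counts within 1.5 times), 15 changed sign, 44 lost a call, 3 gained one and 55 counts of features moved by more. For Ntsr1 in PAG carrageenan (1.26 as reported) the call was lost with median centring (1.22, adjusted p = 0.0524), quantile normalization (0.82), zeros kept as 0 (1.25, adjusted p = 0.0683), at least 2 measured arrays per group (1.25, adjusted p = 0.0532), robust variance (1.25, adjusted p = 0.0517), exact permutation (1.25, with too few arrays to pass), the group fitted alone (1.25, adjusted p = 0.207) and every array left out (0.82 to 1.49); features on every array and all 6 groups in 1 fit kept it (adjusted p of 0.0231 and 0.0172). For Nts in PAG carrageenan the call was lost with quantile normalization (0.33). At 0.57 it was lost with all 6 groups in 1 fit (limma adjusted p = 0.466) and the group fitted alone (limma adjusted p = 0.149). Exact permutation again had too few arrays to pass. Leaving out an array gave 0.49 to 0.66. Over the 4 brain groups Nts lost it with quantile normalization (0.59) and with all 6 groups in 1 fit (0.47), and Ntsr1 gained it without PAG carrageenan array 3 or RVM saline array 2 (0.42 to 0.59 over all arrays left out). Quantile normalization turned the sign of Nts between carrageenan and saline in PAG (-0.048) and RVM (0.74), of its interaction (-0.79), of PAG minus RVM after carrageenan (-0.87), of Ntsr1 in PAG saline (-0.069; -0.13 to 0.082 with an array left out), and of Nts minus Ntsr1 in RVM carrageenan (0.79; -0.55 to 0.35) and between the RVM groups (0.73; -0.65 to 0.26). The correlation over all arrays was 0.74 with median centring and 0.39 with quantile normalization, neither called (0.25 to 0.83 with an array left out); that in PAG was 0.67 and 0.19, neither called (0.60 to 0.83); that of deviations from group means was -0.19 with quantile normalization and 0.74, called, with zeros kept as 0. Features called in PAG carrageenan numbered 11, against 0 with quantile normalization or exact permutation, 1 with the group fitted alone, 7 with all 6 groups in 1 fit and 1 to 9 with an array left out. In RVM saline they numbered 3, against 9 with zeros kept as 0 and 0 to 9 with an array left out, and over the 4 brain groups 8, against 2 with quantile normalization, 19 with zeros kept as 0 and 4 to 11 with an array left out. Comparisons with 0 calls had at most 6 (interaction, zeros kept as 0). With the replicate number as a block, which no label makes a pairing, Ntsr1 between the RVM groups was -0.31 in place of 0.042. Leaving out an array gave -0.31 to 0.21, and no member gained a call with the block. Why values moved was not tested, except that fewer arrays or features enter some fits. Exact permutation was not run for the interaction and the 4 brain groups. The number of measured arrays sets the precision, and no signal or background was available to weigh single ratios. Fits of a group alone, the 4 brain groups, and correlations without LDH left array 2 or within PAG as deviations were chosen after seeing the data.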
